A study of Gallus gallus with 8 samples.

Results

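The genes described here are the W-linked genes measured in the chicken embryonic heart, chosen by symbol as the rows named ATP5A1W, HINTW, SPINW and HNRPK. They took 5 of the 15873 rows of the expression table, where a row is 1 Ensembl gene ID, because HINTW had 2 rows. All 5 passed the filter on low values, at least 1 RPKM in at least 2 of the 8 libraries, as did 11556 rows in all. For 4 of the 5 rows, all but HNRPK, the filter was passed only through the libraries where they are high. RPKM is the number of reads scaled by the length of the gene model and by the mapped reads of the library.

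The study sequenced heart mRNA of chicken embryos at 16 days of incubation from highland and lowland breeds, and its stated question was adaptation of the heart to altitude. The highland breeds were Linzhi Tibetan and Lhasa White, and the lowland breeds were Chahua and White Leghorn (spelled "White leghom" in the labels), each with 2 libraries. No library carried a treatment or a transgene, and the labels give neither the sex of an embryo, nor the oxygen level during incubation, nor whether a library came from 1 embryo or from a pool. P-values therefore measure the spread between libraries, which the labels do not place as technical or as between embryos. In Lhasa White and White Leghorn it included a W difference between the 2 libraries, described below.

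Birds have a ZW sex chromosome system, in which females carry a Z and a W chromosome and males carry a pair of Z chromosomes. The W chromosome has lost most of its ancestral genes, and many of those it kept are copies of broadly expressed, dosage-sensitive genes that also have a copy on Z. ATP5A1W encodes a copy of the alpha subunit of the mitochondrial ATP synthase. HNRPK is the symbol of the W row of the RNA-binding protein hnRNP K. HINTW is a multi-copy relative of the nucleotide hydrolase HINT1. SPINW is a copy of spindlin, a protein that binds methylated histones. The RefSeq gene table of the GRCg7b assembly places HINTW on W by its symbol and places HNRPK and SPINW there by synonyms, under the symbols HNRNPKL and SPIN1L. ATP5A1W was not matched by its symbol, and the table has a gene ATP5F1AW on W.

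The libraries held between 17245669 and 22157553 mapped reads. Heart muscle genes were abundant in every library: 14 of them summed to 32785 to 51376 RPKM in the 4 libraries named below for their W transcripts and to 41045 to 42882 RPKM in the other 4. Of 6 gonad and germ-line markers, DDX4 and DAZL reached at most 0.0232 and 0.078 RPKM, while INHA reached 29.1 RPKM in Lhasa White 2, against at most 7.06 RPKM elsewhere. Of 4 atrial markers, MYH7, BMP-10 and NR2F2 were highest in Lhasa White 2 and next in Chahua 2, with MYH7 at 1457 and 115 RPKM there, against 0.878 to 7.07 RPKM in the other 6 libraries. The remaining one, NPPA, was at 1690 and 2419 RPKM in those libraries and within the range of the other 6, 1286 to 2717 RPKM. The ventricular MYH15 was lowest in Lhasa White 2, at 1288 RPKM, and highest in Chahua 2, at 4949 RPKM. Every W gene was high in Lhasa White 2, Chahua 1, Chahua 2 and White Leghorn 1 and low in Lhasa White 1, Linzhi Tibetan 1, Linzhi Tibetan 2 and White Leghorn 2. The first 4 are called the W-positive libraries in the text. Since the W values themselves set that division, differences across it are given as descriptions, with no test.

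ATP5A1W (ENSGALG00000001756) was the most abundant member by median. It stood at 409 RPKM in White Leghorn 1, 445 in Chahua 1, 496 in Chahua 2 and 398 in Lhasa White 2, against 4.02 in Lhasa White 1, 0.0774 in Linzhi Tibetan 1, 0.355 in Linzhi Tibetan 2 and 0.241 in White Leghorn 2. These values rest on 14465 to 18661 reads in the W-positive libraries and on 154, 3, 15 and 9 reads in the other 4. The lowest W-positive library was 99.2-fold above the highest of the others. Among the W-positive libraries the highest level was 1.25 times the lowest, while the median of that ratio over the 11556 rows was 1.54. The libraries highest in MYH7, Chahua 2 and Lhasa White 2, held the highest and the lowest of these levels. In each W-positive library ATP5A1W ranked between 162nd and 193rd of the 15873 rows by RPKM.

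The HINTW row ENSGALG00000022674, called HINTW row A, was about as abundant. It stood at 539 RPKM in White Leghorn 1, 409 in Chahua 1, 359 in Chahua 2 and 390.3 in Lhasa White 2, from 3136 to 4800 reads. Lhasa White 1 held 3.91 RPKM from 35 reads and Linzhi Tibetan 2 held 0.304 RPKM from 3 reads. Linzhi Tibetan 1 and White Leghorn 2 had no read, which allows levels of up to 0.331 and 0.344 RPKM (3 reads each). White Leghorn 1 was the highest library, with a counting interval of 523 to 554 RPKM (95%, exact Poisson) that lay above the levels of the other W-positive libraries. Such intervals cover counting error only.

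The other HINTW row, ENSGALG00000022683, called HINTW row B, was lower. It stood at 28.5 RPKM in White Leghorn 1, 33.5 in Chahua 1, 19.8 in Chahua 2 and 20.5 in Lhasa White 2, from 223 to 329 reads. Lhasa White 1 held 0.349 RPKM from 4 reads, and the remaining libraries had no read, which allows up to 0.259 RPKM in Linzhi Tibetan 1, 0.238 in Linzhi Tibetan 2 and 0.269 in White Leghorn 2. Row B was at 5.26%, 8.19%, 5.53% and 5.29% of row A in Lhasa White 2, Chahua 1, Chahua 2 and White Leghorn 1. Chahua 1 was the highest library in row B and White Leghorn 1 the highest in row A. HINTW has near-identical copies, so how reads were divided between its rows depends on the alignment, and the level of each row is uncertain.

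HNRPK (ENSGALG00000014366) was the most even member across the W-positive libraries. It stood at 29.7 RPKM in White Leghorn 1, 26.8 in Chahua 1, 29.4 in Chahua 2 and 29.7 in Lhasa White 2, against 1.18 in Lhasa White 1, 1.56 in Linzhi Tibetan 1, 1.55 in Linzhi Tibetan 2 and 1.71 in White Leghorn 2. Its highest W-positive level was 1.11 times its lowest. It was also the member with the smallest gap, 15.7-fold between the lowest W-positive library and the highest of the others. The low values rest on 81 to 117 reads.

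SPINW (ENSGALG00000029162) was the lowest member. It stood at 4.92 RPKM in White Leghorn 1, 4.58 in Chahua 1, 6.45 in Chahua 2 and 5.78 in Lhasa White 2, against 0.0524 in Lhasa White 1, 0.0173 in Linzhi Tibetan 1, 0.0159 in Linzhi Tibetan 2 and no read in White Leghorn 2, which allows up to 0.0269 RPKM. The W-positive values rest on 450 to 725 reads and the others on 6 reads or fewer. The gap was 87.5-fold.

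**Figure D1:**
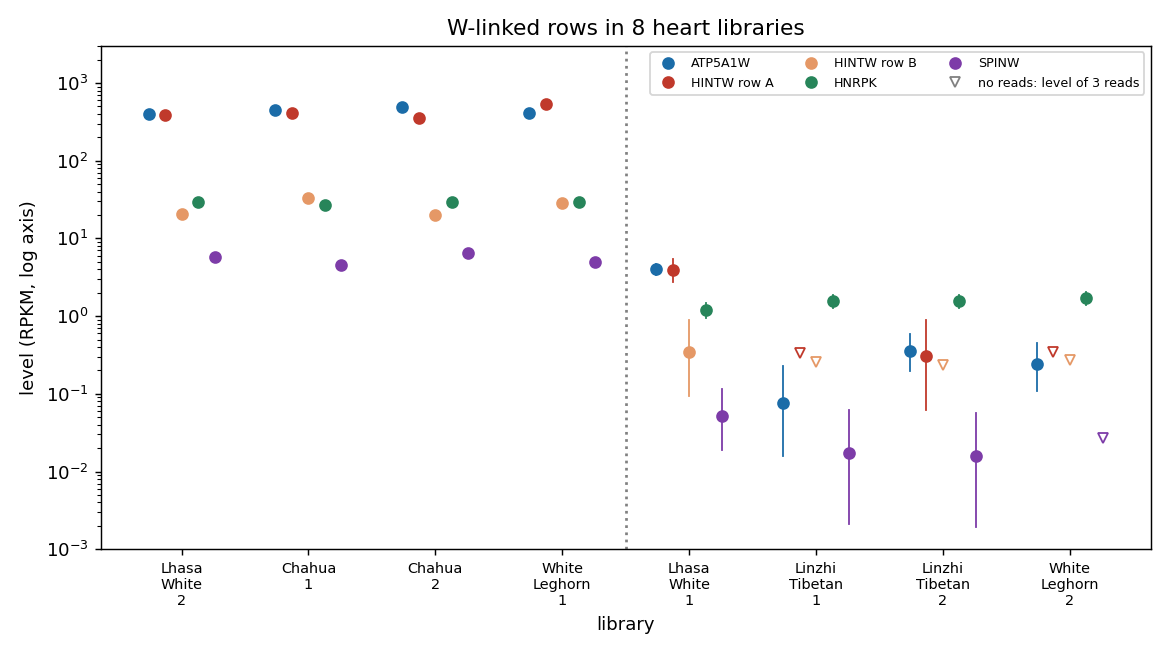
RPKM of the 5 W rows in each of the 8 libraries on a log axis, 1 point per row and library with its exact Poisson 95% interval, and with the W-positive libraries on the left; rows with no read in a library are drawn at the level that 3 reads would give. In every row the 4 W-positive libraries stand above the other 4, by 15.7-fold for HNRPK and by 56.8-fold to 99.2-fold for the other rows.

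In order of their median over the W-positive libraries, ATP5A1W was at 427 RPKM, HINTW row A at 399, HNRPK at 29.5, HINTW row B at 24.5 and SPINW at 5.35. The ranges of ATP5A1W and HINTW row A overlapped, with row A at 132% of ATP5A1W in White Leghorn 1, 98.0% in Lhasa White 2, 91.8% in Chahua 1 and 72.3% in Chahua 2. HNRPK and HINTW row B overlapped as well. SPINW lay below both in every W-positive library, at 16.6% to 21.9% of HNRPK. Together the 5 rows took 0.125% of the mapped reads in Chahua 2, 0.117% in Chahua 1, 0.117% in White Leghorn 1 and 0.108% in Lhasa White 2, against 0.00139%, 0.000555%, 0.000618% and 0.000628% in Lhasa White 1, Linzhi Tibetan 1, Linzhi Tibetan 2 and White Leghorn 2.

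The W level was next set beside that of the Z copy in the same library, which bears on how much of a gene pair's RNA each chromosome supplied. In bulk tissue, fewer cells of a type and less RNA per cell cannot be told apart. Reads from a conserved stretch can be placed on either copy, so the split between copies is uncertain.

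For the ATP synthase alpha subunit, the Z row ATP5A1 stood at 845 RPKM in White Leghorn 1, 908 in Chahua 1, 639.9 in Chahua 2 and 728 in Lhasa White 2, against 1616 in Lhasa White 1, 1156 in Linzhi Tibetan 1, 1469 in Linzhi Tibetan 2 and 1587 in White Leghorn 2. The Z copy was thus lower in all 4 W-positive libraries. ATP5A1W made up 35.3%, 32.9%, 43.7% and 32.6% of the summed RPKM of both copies in Lhasa White 2, Chahua 1, Chahua 2 and White Leghorn 1, and at most 0.248% in the other libraries. Its share of the summed reads was 35.7% to 47.1% in the W-positive libraries. The sum of both copies was 1127 to 1353 RPKM in the W-positive libraries and 1156 to 1620 RPKM in the other 4. These ranges overlapped only through Linzhi Tibetan 1, at 1156 RPKM. Linzhi Tibetan 2, Lhasa White 1 and White Leghorn 2 lay above all W-positive libraries, at 1469, 1620 and 1587 RPKM.

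ATP5B, the catalytic beta subunit of the same enzyme, gave a common scale for the alpha subunit. The ratio of ATP5A1 to ATP5B was 0.391 to 0.498 in the W-positive libraries and 0.766 to 0.868 in the other 4, with no overlap. With ATP5A1W added to ATP5A1, the ratio was 0.583 to 0.881 in the W-positive libraries and 0.766 to 0.870 in the other 4, which overlapped. Chahua 1 and White Leghorn 1, at 0.583 and 0.655, lay below all of the other 4. Lhasa White 2 and Chahua 2, the libraries highest in MYH7, stood at 0.770 and 0.881. Their ATP5B was the lowest of the 8 libraries, at 1463 and 1290 RPKM. Chahua 1 had the highest ATP5B, at 2323 RPKM, and White Leghorn 1 stood at 1915 RPKM. The ratio thus depended on ATP5B as well as on the alpha subunit, and no other subunit was used as the scale.

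For hnRNP K, the Z row HNRNPK stood at 83.5, 73.1, 71.4 and 79.0 RPKM in Lhasa White 2, Chahua 1, Chahua 2 and White Leghorn 1, against 129, 113, 114 and 130.3 RPKM in Lhasa White 1, Linzhi Tibetan 1, Linzhi Tibetan 2 and White Leghorn 2. The W row HNRPK gave 26.2% to 29.2% of the summed RPKM in the W-positive libraries and 0.909% to 1.36% in the others. As a share of the summed reads, with no scaling by gene-model length, HNRPK gave 44.9% to 48.6% in the W-positive libraries. The sum was 99.9 to 113 RPKM in the W-positive libraries and 115 to 132 RPKM in the other 4. These ranges did not overlap, but Lhasa White 2, at 113.1 RPKM, and Linzhi Tibetan 1, at 114.6 RPKM, lay close together. Those of the alpha subunit overlapped only through Linzhi Tibetan 1. Sums of RPKM weigh each copy by its gene-model length, and summed reads were not compared between libraries. The order of the hnRNP K sums is therefore given for RPKM only.

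For spindlin, the Z row SPINZ stood at 29.3, 23.6, 34.4 and 25.0 RPKM in Lhasa White 2, Chahua 1, Chahua 2 and White Leghorn 1, against 47.5, 51.7, 51.6 and 44.9 RPKM in Lhasa White 1, Linzhi Tibetan 1, Linzhi Tibetan 2 and White Leghorn 2. SPINW gave the most constant share of the 3 pairs, 16.5%, 16.3%, 15.8% and 16.5% of the summed RPKM in Lhasa White 2, Chahua 1, Chahua 2 and White Leghorn 1. As a share of the summed reads SPINW gave 26.1% to 27.0% in those libraries. The sum reached 28.2 to 40.8 RPKM in the W-positive libraries, below the 44.9 to 51.7 RPKM of the other 4. As for hnRNP K, this order is given for RPKM only, and summed reads were not compared. In all 3 pairs the W copy was lower than its Z copy in every W-positive library.

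**Figure D2:**
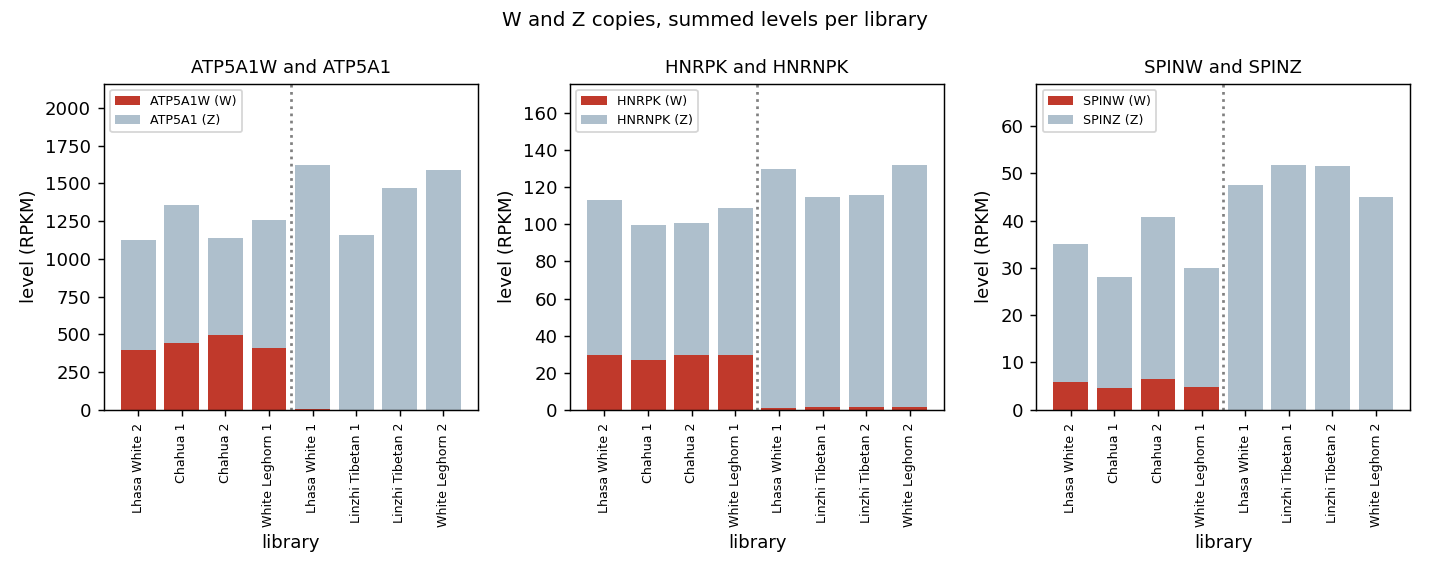
Stacked RPKM of the W copy and the Z copy in each library for the alpha subunit, hnRNP K and spindlin, with the W-positive libraries on the left. For the alpha subunit the sums, 1127 to 1353 and 1156 to 1620 RPKM, overlap between the library sets only through Linzhi Tibetan 1. For the other 2 pairs the sums of RPKM lie lower in all W-positive libraries, narrowly so for hnRNP K. These sums depend on the gene-model lengths, and summed reads were not compared.

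HINT1, the Z relative of HINTW, had no row of that symbol. The row HINT2, for which the RefSeq table lists HINT1Z as a synonym on Z, was looked up after its values were seen. It stood at 45.1 to 68.1 RPKM in the W-positive libraries and at 87.5 to 115 RPKM in the other 4. HINTW row A was above this row in every W-positive library. The RefSeq table also places a separate gene HINT1 on Z. Whether the HINT2 row measures the Z relative of HINTW was not settled.

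The residue of W reads outside the W-positive libraries was not even. Lhasa White 1 held the most reads of ATP5A1W, of both HINTW rows and of SPINW among the other 4 libraries, and the fewest of HNRPK. As a percentage of the W-positive median, its level was 0.940% for ATP5A1W (0.797% to 1.10%, 95% exact Poisson), 0.978% for HINTW row A (0.682% to 1.36%), 1.42% for HINTW row B (0.388% to 3.64%) and 0.979% for SPINW (0.359% to 2.13%). The intervals of these rows overlapped. HNRPK was higher, at 4.01% (3.18% to 4.98%), an interval above those of ATP5A1W, HINTW row A and SPINW that overlapped that of HINTW row B.

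Lhasa White 1 also held ATP5A1W, HINTW row A and SPINW in proportions within the range of the W-positive libraries. HINTW row A was at 97.3% of ATP5A1W there and SPINW at 1.30% of it, against 72.3% to 132% and 1.03% to 1.45% in the W-positive libraries. HINTW row B, with 4 reads, was at 8.92% of row A, against 5.26% to 8.19%. HNRPK was at 29.5% of ATP5A1W in Lhasa White 1, outside the 5.93% to 7.45% of the W-positive libraries. Against its breed mate, Lhasa White 2, ATP5A1W was at 1.01% in Lhasa White 1. MYH7 and BMP-10, both highest in Lhasa White 2, were in Lhasa White 1 at 0.485% and 0.257% of its level, at 7.07 and 0.745 RPKM. For MYH7 that was the highest level outside Lhasa White 2 and Chahua 2, and for BMP-10 the lowest of the 8 libraries. The part of these values in the W residue was not tested.

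HNRPK had a residue of like size in all the other libraries, at 5.29% of the W-positive median in Linzhi Tibetan 1, 5.26% in Linzhi Tibetan 2 and 5.80% in White Leghorn 2. ATP5A1W was at 0.0181%, 0.0831% and 0.0564% in those libraries. For each 10000 RPKM of the Z row HNRNPK, HNRPK had 91.8 RPKM in Lhasa White 1, 138 in Linzhi Tibetan 1, 136 in Linzhi Tibetan 2 and 131 in White Leghorn 2. For each 10000 RPKM of ATP5A1, ATP5A1W had 24.9 RPKM in Lhasa White 1 and 0.669 to 2.42 RPKM in the other 3. The share of HNRPK reads that belong to the Z copy was not tested.

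**Figure D3:**
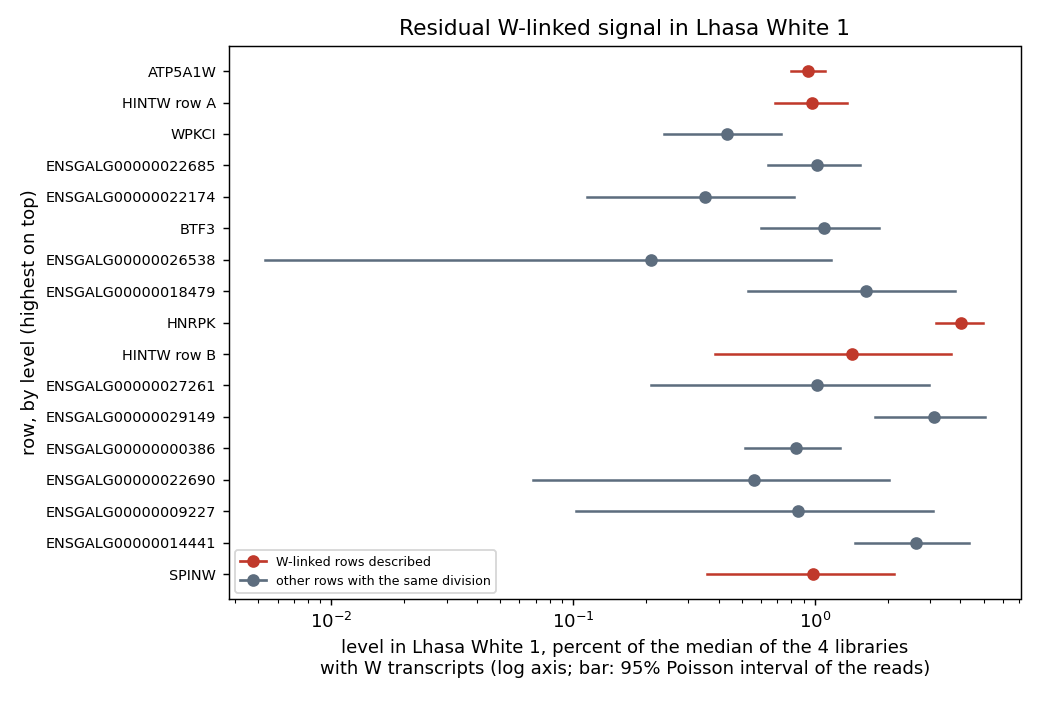
Level in Lhasa White 1 as a percentage of the W-positive median on a log axis, with exact Poisson 95% intervals. Shown are the 5 W rows and the other rows with a 4-fold gap and a W-positive median of at least 10 RPKM. Rows are ordered by their mean W-positive level, highest on top. ATP5A1W, both HINTW rows and SPINW lie between 0.940% and 1.42%, and HNRPK lies to their right at 4.01%.

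The division was then counted over all rows of the table. The 4 W-positive libraries all stood above the other 4 in 165 of 11556 rows (1.43%) and all below in 258 rows (2.23%). With a gap of at least 4-fold the count was 41 rows (0.355%), the 5 W rows and 36 others. All 5 W rows are in both the 165 and the 41, which their use in naming the libraries fixes. Of the 36 others, 32 had no symbol, and those with one were WPKCI, BTF3, SLC1A1 and SNORD58, named after their values were seen.

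WPKCI (ENSGALG00000022679), which the RefSeq table gives as a synonym of HINTW, was a further abundant row of that family. It stood at 341 RPKM in White Leghorn 1, 367 in Chahua 1, 333 in Chahua 2 and 360 in Lhasa White 2, against 1.52 in Lhasa White 1, 0.197 in Linzhi Tibetan 2 and no read in Linzhi Tibetan 1 and White Leghorn 2. Its residue in Lhasa White 1, 0.434% of the W-positive median (0.237% to 0.728%, 14 reads), lay below the interval of ATP5A1W. The row BTF3, a basic transcription factor that RefSeq places on Z, stood at 34.4, 38.3, 48.8 and 41.9 RPKM in Lhasa White 2, Chahua 1, Chahua 2 and White Leghorn 1, and at 0.439 RPKM or less in the others. This row therefore divided the libraries as a W row does. The placement on Z was matched by symbol only, and the row's own gene ID was not placed.

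Other rows past the filter were ranked by Pearson's r of log2(RPKM + 1) with the mean profile of the 5 W rows. For that mean each W row was centred and scaled to unit SD. Most like it over the 8 libraries were WPKCI, ENSGALG00000022174 and BTF3, each with r = 0.999. The 5 W rows correlated with each other at r = 0.977 to 0.998. These correlations describe 8 libraries that fall into separate sets, and rows without a symbol are given no name here. Of the 16 rows with the 4-fold gap and a W-positive median of at least 10 RPKM, the residue in Lhasa White 1 ran from 0.210% to 4.01% with a median of 0.999%, and HNRPK was the highest. Among all 41 rows, 31 had reads in Lhasa White 1, 9 in Linzhi Tibetan 1, 17 in Linzhi Tibetan 2 and 10 in White Leghorn 2.

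**Figure D4:**
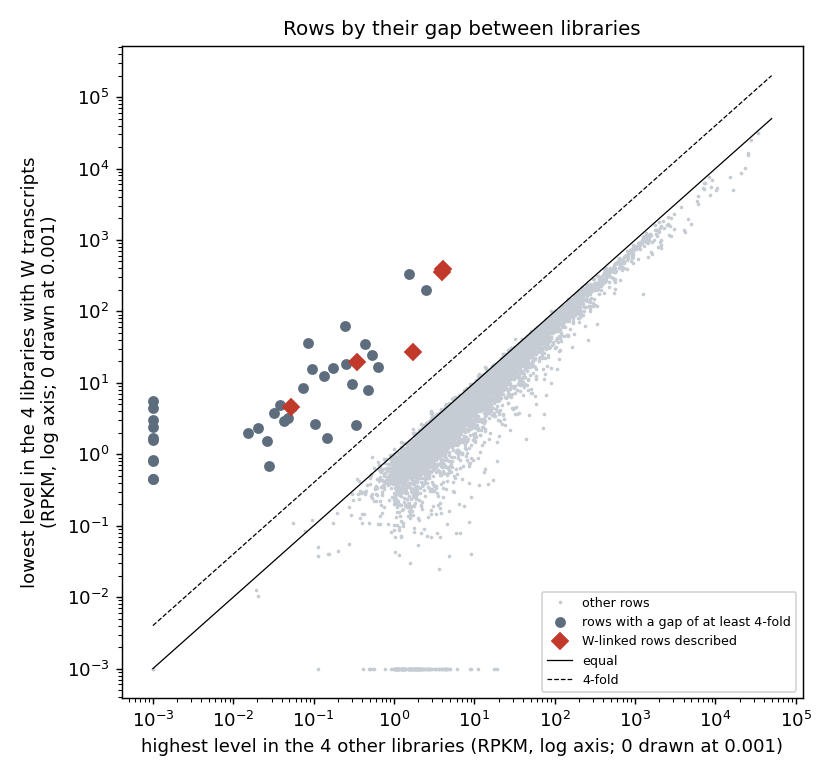
Lowest W-positive RPKM against highest RPKM of the other 4 libraries, both on log axes, for all rows past the filter, with the 5 W rows and the other rows with a 4-fold gap marked; values under 0.001 RPKM are drawn there and the line marks the 4-fold gap. HNRPK, with a gap of 15.7-fold, lies closer to the line than the other W rows.

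The comparison the design implies is that of highland with lowland breeds. The W-positive libraries were 1 of the 4 highland and 3 of the 4 lowland libraries, so that W level and altitude group moved together in part. ATP5A1W averaged 101 ± 198 RPKM in highland hearts and 338 ± 228 RPKM in lowland hearts (SD, n = 4 each). Its highland minus lowland difference was -3.81 on the log2(RPKM + 1) scale (SE 1.94, limma adjusted p = 0.999). HINTW row A averaged 98.6 ± 194 RPKM in highland and 327 ± 230 RPKM in lowland hearts, with a difference of -3.74 (SE 2.05). HINTW row B averaged 5.22 ± 10.2 RPKM in highland and 20.4 ± 14.7 RPKM in lowland hearts, with a difference of -2.38 (SE 1.18).

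HNRPK averaged 8.49 ± 14.1 RPKM in highland and 21.9 ± 13.5 RPKM in lowland hearts, with a difference of -1.83 (SE 0.964). SPINW averaged 1.47 ± 2.88 RPKM in highland and 3.99 ± 2.78 RPKM in lowland hearts, with a difference of -1.27 (SE 0.707). None of the 5 rows passed the test, and limma's adjusted p was 0.999 for each. The size of the differences rested on single libraries: that of ATP5A1W was -1.72 without White Leghorn 1, -2.23 without Lhasa White 1, -5.39 without Lhasa White 2 and -5.90 without White Leghorn 2. Over each library left out, it ran from -6.01 to -1.47 for HINTW row A, -3.60 to -1.16 for HINTW row B, -2.79 to -0.88 for HNRPK and -1.94 to -0.59 for SPINW, and the same 4 libraries gave the values farthest from the whole set. In all, 1 of 11556 rows was called (0.00865%), namely GBP, a guanylate-binding protein row, and 362 rows had an unadjusted p under 0.05. In every W row the highest highland library was Lhasa White 2, and the lowest lowland library was White Leghorn 2.

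Both Chahua libraries and neither Linzhi Tibetan library were W-positive, and this pair of breeds had the largest fitted difference of ATP5A1W, -8.61 for Linzhi Tibetan minus Chahua (SE 2.75, limma adjusted p = 0.67). Lhasa White and White Leghorn each held 1 library of each kind. Within Lhasa White, replicate 2 was above replicate 1 by 99.2-fold in ATP5A1W (84.6 to 117, 95% counting interval), 99.9-fold in HINTW row A (71.7 to 144), 58.9-fold in HINTW row B (22.7 to 218), 110.3-fold in SPINW (50.4 to 302) and 25.1-fold in HNRPK (20.1 to 31.7). Within White Leghorn, replicate 1 was above replicate 2 by 1698-fold in ATP5A1W (894 to 3714) and 17.4-fold in HNRPK (14.4 to 21.1). It was at least 1565-fold higher in HINTW row A, at least 106-fold in HINTW row B and at least 183-fold in SPINW, set against a floor of 3 reads in the library without reads. The division thus ran through breeds as well as between them.

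In none of the 6 pairs of breeds, nor in the test of any breed difference, did a W row pass limma's adjusted p of 0.05. The share of all rows called was 0% in 5 of the pairs and in the test of any difference, and 0.00865% in Lhasa White minus Chahua, where GBP was called. That call was lost with a replicate block, with voom, without both libraries highest in MYH7 and without any single library other than those of Linzhi Tibetan. Without Lhasa White 1, Linzhi Tibetan minus Lhasa White had 52 rows called and Lhasa White minus White Leghorn 38, and with no filter the 3 pairs with Linzhi Tibetan had 12 to 13. No W row was among them. In the test of any difference, 753 rows had an unadjusted p under 0.05, and voom on the recovered reads called 0 rows with 636 under that level. In Linzhi Tibetan minus Chahua, 816 rows had an unadjusted p under 0.05, and voom called 0 with 716 under that level.

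The genes that work beside the W genes were read from lists. Of 10 further ATP synthase subunits measured, 1 was higher and 9 were lower in highland hearts, with a median log2 difference of -0.09, and none was called, where 6707 of all 11556 rows were higher, 4849 were lower and the median was 0.03. None of these 10 separated the W-positive libraries from the rest. Of all 11556 rows, 1.43% lay above and 2.23% below in those libraries. With shares this small, a count of none among 10 does not set the subunits apart from other rows. ATP5G3, a subunit of the membrane ring, stood at 656 to 814 RPKM in the W-positive libraries and 583 to 886 RPKM in the other 4. Of 14 rows tested of the HINT and hnRNP family, 10 were higher and 4 were lower in highland hearts, with a median log2 difference of 0.03 and none called. HNRNPA2B1, an RNA-binding relative of hnRNP K, stood at 317 to 438 RPKM in the W-positive libraries and 359 to 456 RPKM in the other 4. In that list, which leaves out HNRNPK as the Z copy described above, 1 of the 14 rows lay below in all 4 W-positive libraries. That row was HINT2, and 2.23% of all 11556 rows lay below in the same way.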

How the data were processed

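The deposited table gives 1 RPKM value per Ensembl gene ID and library; per the submitters' processing notes reads were mapped with BWA; its version, the genome build, the counter and the strand setting are not stated in the labels. RPKM values were whole multiples of the worth of 1 read in 15873 of 15873 rows (within 0.05 reads), which gave the reads, the gene-model lengths and the depth of each library, 17245669 to 22157553 reads. Levels were tested as log2(RPKM + 1) with limma 3.58.1 in R 4.3.3 (breed means, trended variance, Benjamini-Hochberg adjustment, 0.05) over 11556 rows at 1 RPKM or more in at least 2 libraries. Other steps used SciPy 1.17.1, pandas 2.3.3, NumPy 2.4.6 and matplotlib 3.10.9 under Python 3.11.15. Fits were tested on simulated data. Counting intervals and the floor of 3 reads cover counting error only. Fitted differences of rows with no read in some libraries depend on the pseudocount.

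The members and gene lists were chosen with earlier results of these data known. Named are the 5 W rows, their Z copies and the rows most and least like the mean profile of the W rows. Of each list, members that pass a test are named, or otherwise the most abundant. Others, among them HINT2, NEDD4L and TNPO1, were named outside this rule. Other settings were another pseudocount (0.1), other filters, median ratio scaling, voom on the recovered reads, a replicate block, and leaving out libraries.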

Additional observations from a re-analysis of the deposited data

Results flagged for a closer look

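In highland hearts Lhasa White 2 lay far above the other 3 libraries in all 5 W rows by Dixon's criterion, with 398 RPKM of ATP5A1W, 390.3 of HINTW row A, 29.7 of HNRPK, 20.5 of HINTW row B and 5.78 of SPINW. In lowland hearts White Leghorn 2, with 1.71 RPKM of HNRPK, lay far below the other 3. These are the single W-positive highland library and the single lowland library outside that set, so the values that name the W-positive libraries also set these gaps. The criterion's chance rate of about 1 in 20 groups does not apply to them, and they are given as a description.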

How the results depend on the processing

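The W rows passed the threshold in none of 592 member tests under other settings. Of these, 566 were counted as keeping their direction and 26 as reversed, and the cause was not tested. The 566 include the tests of any breed difference, whose statistic has no sign and so could not reverse. They also include settings that could not change a signed difference of a W row. These were no filter, the minimum mean RPKM, the replicate block, and leaving out a library of neither breed of a pair. The 566 are therefore not a measure of stability. The numbers of the libraries did not pair them (r of same-numbered deviations -0.332 to 0.17 over pairs of breeds). With a replicate block the ATP5A1W highland minus lowland difference was -3.81, as in the main setting. The block could not change it, since each breed held both replicate numbers. Highland minus lowland kept its direction in the W rows with each library left out. Rows called for highland minus lowland numbered 0 with no filter, with the replicate block, without both libraries highest in MYH7 and with voom, and 0 to 1 with each library left out; the row was GBP without Linzhi Tibetan 2 and ELN without Lhasa White 1. Rows called for any breed difference numbered 14 with no filter and 0 to 1 with each library left out. Rows with the W-positive libraries above numbered 261 of 15873 with no filter and 73 of 8053 at a mean of at least 5 RPKM. In the main setting they numbered 165 of 11556 (1.43%). Rows with the 4-fold gap numbered 16 of 8053 at that minimum and 41 of 11556 (0.355%) in the main setting. Without both libraries highest in MYH7, Linzhi Tibetan minus Lhasa White was 0.23 for HNRPK. Lhasa White minus White Leghorn was then -2.17 for ATP5A1W, -2.24 for HINTW row A and -1.21 for SPINW. Leaving out Lhasa White 2 alone, the only W-positive library of its breed, gave the same values. Lhasa White minus White Leghorn for HINTW row B was 0.85 with a pseudocount of 0.1 and 1.26 with voom.

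With each library left out in turn, the log2 differences counted as reversed ranged as follows. Linzhi Tibetan minus Lhasa White ran from -3.58 to 0.23 for HNRPK. Linzhi Tibetan minus White Leghorn ran from -8.88 to 0.19 for HINTW row A, -4.88 to 0.0 for row B and -2.54 to 0.02 for SPINW. The 0.0 of row B, without White Leghorn 1, was no change of sign, since no library left in that pair held a read. Lhasa White minus Chahua ran from -3.73 to 0.08 for HNRPK, -6.29 to 0.03 for HINTW row A and -2.62 to 0.07 for SPINW. Lhasa White minus White Leghorn ran from -3.20 to 5.17 for ATP5A1W, -3.62 to 5.45 for HINTW row A, -2.06 to 1.75 for HNRPK, -2.45 to 2.43 for row B and -1.21 to 1.48 for SPINW. Chahua minus White Leghorn ran from -0.08 to 3.42 for HNRPK, -0.49 to 8.58 for HINTW row A and -0.14 to 4.74 for row B. Median ratio scaling divided the levels by 0.929 to 1.04. Each left-out library leaves its breed with 1, assumed to vary like the other breeds. Depth limits the rows with 0 to 15 reads outside the W-positive libraries.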

Other observations

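Rows that carry the symbols of Z copies of further W genes were also read. Of 8 rows measured, 5 lay below in all 4 W-positive libraries (2.23% of all 11556 rows did), BTF3 lay above, and SUB1 and TNPO1 overlapped. VCP, an ATPase that extracts ubiquitinated proteins, stood at 39.4 to 63.8 RPKM in the W-positive libraries and 74.7 to 102.9 RPKM in the other 4. TXNL1, a thioredoxin-like protein, stood at 27.8 to 33.6 RPKM in the W-positive libraries and 44.8 to 52.2 RPKM in the other 4. UBE2R2, a ubiquitin-conjugating enzyme, stood at 21.3 to 27.0 RPKM in the W-positive libraries and 30.8 to 38.6 RPKM in the other 4. SUB1, a transcriptional coactivator, stood at 24.2 to 33.3 RPKM in the W-positive libraries and 28.3 to 31.1 RPKM in the other 4. NEDD4L, a ubiquitin ligase that the RefSeq table places on W, stood at 13.2 to 15.5 RPKM in the W-positive libraries and 21.1 to 26.2 RPKM in the other 4, and so lay on the side of the Z copies. In highland minus lowland, 6 of the 8 were higher and 2 were lower, and limma called none. Of all 11556 rows, 6707 were higher, 4849 were lower and 0.00865% were called. With 1 W-positive highland library and 3 W-positive lowland libraries, altitude group and W division cannot be told apart in these counts.

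The row least like the mean profile of the 5 W rows over the 8 libraries was POLR1E, with r = -0.991. POLR1E encodes a subunit of RNA polymerase I, and RefSeq places it on Z. It stood at 16.4, 16.9, 17.4 and 15.6 RPKM in Lhasa White 2, Chahua 1, Chahua 2 and White Leghorn 1, against 29.6, 29.4, 32.4 and 30.0 RPKM in Lhasa White 1, Linzhi Tibetan 1, Linzhi Tibetan 2 and White Leghorn 2. The next, TRMT10B, DCTN3, RNF20 and ALDH7A1, are all placed on Z as well, with r from -0.989 to -0.987.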
